A study of Mus musculus with 35 samples.

Results

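The deposited H3K36me3 domains of c13 and c34 oocyte-like cells were compared on mouse autosomes 1 to 19. A domain is a stretch that the authors' peak list reports as enriched for trimethylation of lysine 36 of histone H3. The c13 list held 1088 domains and the c34 list 5441, so 6529 domains were compared, of the 167982 peaks in the 13 lists of the series. Each list was given whole, and a domain belonged to the comparison when it lay on an autosome of the c13 or c34 H3K36me3 list.

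The study mapped histone marks in female mouse germ cells with CATCH-seq, in which chromatin of few cells is cut by micrococcal nuclease, carrier DNA limits losses and unfixed nucleosomes are pulled down with an antibody. Both cultured stages came from 1 embryonic stem cell line, H18, with wild-type genotype and the reporters Prdm1-mVenus and Dppa3-ECFP. The labels name 2 H3K36me3 libraries at each of c13 and c34 but 1 peak list was deposited per stage, and how it combines the libraries is not given in the sources used here. The oocytes used beside them were fetal oocytes of E18.5, also with Prdm1-mVenus and Dppa3-ECFP, and full-grown germinal vesicle (GV) oocytes of BDF1 animals, all of wild-type genotype. The labels do not say whether animals were pooled. With 1 list a stage, no spread between replicates could be had, so every difference below is a description of the lists without a test. The lists hold positions and no heights, and read depth is unknown.

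H3K36me3 is written behind elongating RNA polymerase II, mainly by SETD2, and in most cells it lies over the bodies of transcribed genes. In growing mouse oocytes it is also the mark that the de novo DNA methyltransferase DNMT3A, with its partner DNMT3L, follows when it methylates transcribed regions, maternal imprints included. H3K27me3, the Polycomb mark, tends to lie outside H3K36me3 because methylation of lysine 36 hinders the Polycomb enzyme on the same histone tail.

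Promoters of oocyte and germ cell genes on which the stages differed show the kind of site compared. The 250 bases before a RefSeq start of 5 genes whose H3K36me3 differed between the stages are shown, 3 of genes marked in c34 only and then 2 of genes marked in c13 only. The genes were picked for these calls from the named genes with a RefSeq promoter, on build GRCm38.p6, and Spo11 had no entry. For 3 of them the start in the promoter table lies inside the outer limits of the gene used elsewhere here, by 518 bases at Nobox, 277 at Zar1 and 785 at Stra8. Their windows therefore lie within the gene body as measured, while those of Nlrp5 and Dazl lie just outside it. CpG sites, where oocyte DNA methylation is placed, are in capitals.
Nobox, chr6:43309555-43309804, minus strand: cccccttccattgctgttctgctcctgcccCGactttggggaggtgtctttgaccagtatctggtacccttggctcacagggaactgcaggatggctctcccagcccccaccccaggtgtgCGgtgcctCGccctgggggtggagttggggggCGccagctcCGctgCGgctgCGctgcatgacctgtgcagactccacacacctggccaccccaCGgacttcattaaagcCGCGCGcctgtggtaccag
Zar1, chr5:72581085-72581334, minus strand: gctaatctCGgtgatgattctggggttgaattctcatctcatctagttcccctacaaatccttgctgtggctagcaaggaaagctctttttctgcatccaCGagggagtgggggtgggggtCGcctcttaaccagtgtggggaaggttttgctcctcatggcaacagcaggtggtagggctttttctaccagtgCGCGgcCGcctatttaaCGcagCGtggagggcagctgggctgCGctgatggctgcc
Nlrp5, chr7:23385639-23385888, plus strand: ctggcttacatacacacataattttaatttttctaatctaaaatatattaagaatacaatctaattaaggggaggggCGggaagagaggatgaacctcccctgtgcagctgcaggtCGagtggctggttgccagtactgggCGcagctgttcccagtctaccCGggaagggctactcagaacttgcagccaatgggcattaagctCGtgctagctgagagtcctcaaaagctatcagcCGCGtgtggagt
Stra8, chr6:34920698-34920947, plus strand: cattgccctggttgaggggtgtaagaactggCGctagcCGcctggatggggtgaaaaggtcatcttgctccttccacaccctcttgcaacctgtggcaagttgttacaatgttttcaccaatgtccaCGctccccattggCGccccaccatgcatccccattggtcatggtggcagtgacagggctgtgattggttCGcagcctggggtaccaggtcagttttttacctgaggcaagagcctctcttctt
Dazl, chr17:50293621-50293870, minus strand: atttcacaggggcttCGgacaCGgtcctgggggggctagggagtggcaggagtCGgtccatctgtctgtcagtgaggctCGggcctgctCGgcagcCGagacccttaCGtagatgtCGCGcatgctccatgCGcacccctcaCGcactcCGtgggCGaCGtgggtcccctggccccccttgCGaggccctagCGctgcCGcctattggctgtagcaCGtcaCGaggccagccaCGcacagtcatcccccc
H3K36me3 domains covered 250 of the 250 bases in c34 and 0 in c13 at Nobox, Zar1 and Nlrp5, and 250 in c13 and 0 in c34 at Stra8 and Dazl. H3K4me3, the mark of active and poised promoters, covered all 250 bases at both stages at 4 of these promoters and at Nlrp5 in c34 only, where c13 had 0. At Stra8 and Dazl H3K27me3 covered 250 bases at both stages. The windows held 11 CpG sites at Nobox, 9 at Zar1, 7 at Nlrp5, 5 at Stra8 and 20 at Dazl, so the 2 kinds of gene overlapped in CpG number.

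The same windows were read for all 16456 coding genes with a promoter entry. A gene is called marked here when H3K36me3 domains cover at least 20% of its body. The median was 15 CpG sites in genes marked throughout, 5 where only c13 was marked, 11 where only c34 was and 2 where neither was, against 10 over all promoters. A window with 10 or more sites was found in 68.2%, 34.9%, 54.8% and 17.9% of these classes in the same order. The E-box CANNTG, read on both strands, was in 62.4% of all windows, in 61.6% of those marked in c34 only and in 66.2% of those marked in c13 only. The letters TAATTG, read on both strands, which the homeodomain factor NOBOX can bind, were in 6.52% of all windows, in 6.80% in c34 only and in 6.16% in c13 only. The same letters cannot match both motifs in full, though matches can share part of their letters.

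The c13 mark formed very wide blocks, and the c34 mark formed many narrow domains. Domains covered 1108 Mb in c13, 45.0% of the 2461 Mb of autosome, and 898 Mb in c34, 36.5%. The median width was 310 kb in c13 and 100 kb in c34. The widest domain was 20.86 Mb in c13 and 2.74 Mb in c34. In c13, 286 domains reached 1 Mb and held 80.6% of the covered length, against 34 domains and 4.93% in c34. The smallest gap between neighbouring domains was 40 kb in both lists and both lay on steps of 10 kb, so the lists share their grid and their closest spacing. A median c13 domain touched 3 protein-coding genes and a median c34 domain touched 1. GV oocytes were close to c34 in width, with a median of 105 kb and 5.05% of the length in domains of 1 Mb or more.

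**Figure D1:**
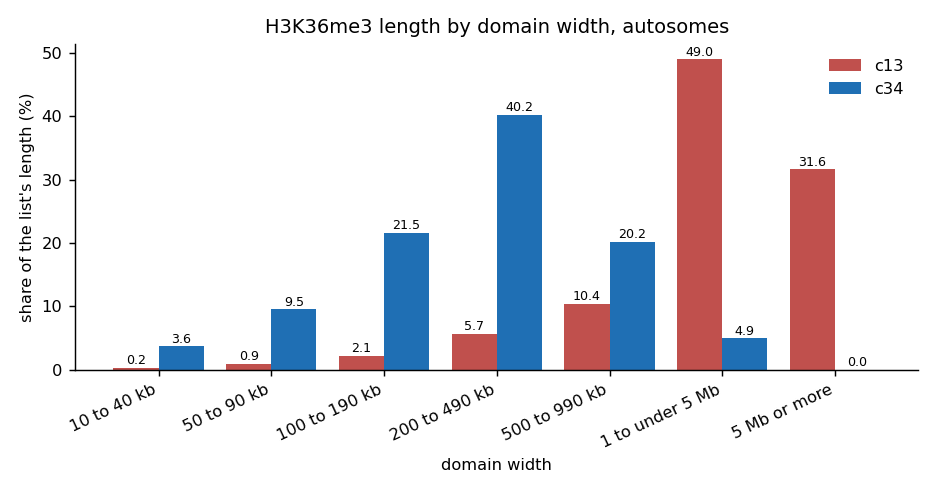
Share of each list's covered length (y axis, %) by width of the domain (x axis), with c13 in red and c34 in blue on autosomes 1 to 19. The c13 length sits in domains of 1 Mb or more (49.0% and 31.6% in the widest classes), and the c34 length peaks in the middle of the width range (40.2%).

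Chromosomes differed more in c13 than in c34. The covered share ran from 23.2% on chromosome 3 to 71.0% on chromosome 11 in c13, and from 25.6% to 46.3% on the same chromosomes in c34. The c13 share was the larger on 17 of 19 autosomes, chromosomes 1 and 3 being the others. In windows of 1 Mb, c13 coverage averaged 6.02% where no coding gene started, 27.1% with 1 to 3 gene starts, 50.7% with 4 to 9 and 71.7% with 10 or more. The same classes had 10.0%, 24.7%, 40.4% and 54.4% in c34. Of the 749 windows richest in genes, 356 were covered from end to end in c13 and 8 in c34.

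Of the c13 length, 56.5% (626 Mb) was kept in c34 and 43.5% (482 Mb) was lost. The kept share ran from 46.9% on chromosome 3 to 66.1% on chromosome 5. Of the c34 length, 30.3% (272 Mb) was gained, meaning that it lay outside every c13 domain, with a range from 12.01% on chromosome 19 to 57.7% on chromosome 3.

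Every domain was put in 1 class by its overlap of at least 1 bp with the other list. Splitting was the most frequent course for c13 domains: 378 of them, 34.7%, each lay over several c34 domains and over nothing that reached another c13 domain. These split domains made up 69.4% of the c13 length and turned into 2257 c34 domains. Their median width was 1185 kb, and a median split domain held 4 c34 domains and at most 54. Another 304 c13 domains met exactly 1 c34 domain and are called kept. Their median was 130 kb in c13 against 110 kb for their partners in c34. The name refers to the pairing only: 56.3% of their c13 length lay in c34 domains, against 57.0% for split domains. Of the length of the c34 partners, 71.4% lay in c13 domains. Merging was rare, with 32 c13 domains under 15 c34 domains. A further 188 c13 and 681 c34 domains overlapped in chains of several on both sides, here called mixed. The remaining 186 c13 domains, 17.1%, had no c34 overlap and are called lost, and 2184 c34 domains, 40.1%, had no c13 overlap and are called gained.

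Lost domains were narrow, with a median of 80 kb, and held 18.8 Mb, 3.90% of all lost length. Most lost length was opened inside larger blocks: 68.6% lay within split domains and 21.7% within mixed ones. Gained length had the opposite form, since 83.5% of it lay in domains that stood apart from any c13 domain. The median distance from a gained domain to the nearest c13 domain was 820 kb.

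The widest c13 domain shows the split. It ran over 20.86 Mb at chr7:124480001-145340000 and touched 335 coding genes. In c34 the same stretch held 48 domains that covered 55.6% of it, and GV domains covered 54.2%. E18.5 domains covered 1.20% of it. Dock1, a guanine nucleotide exchange factor gene of 503 kb, and Shank2, a synaptic scaffold gene of 448 kb, were covered at 100% in both c13 and c34. Syce1, a synaptonemal complex gene in the same block, was covered at 100% in c13 and 0% in c34. The next widest blocks, 17.95 Mb at chr11:93400001-111350000 and 17.61 Mb at chr15:72220001-89830000, kept 53.8% in 54 domains and 65.1% in 37 domains. The plot of the chromosome 7 block shows the c34 domains in groups with bare stretches between them.

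**Figure D2:**
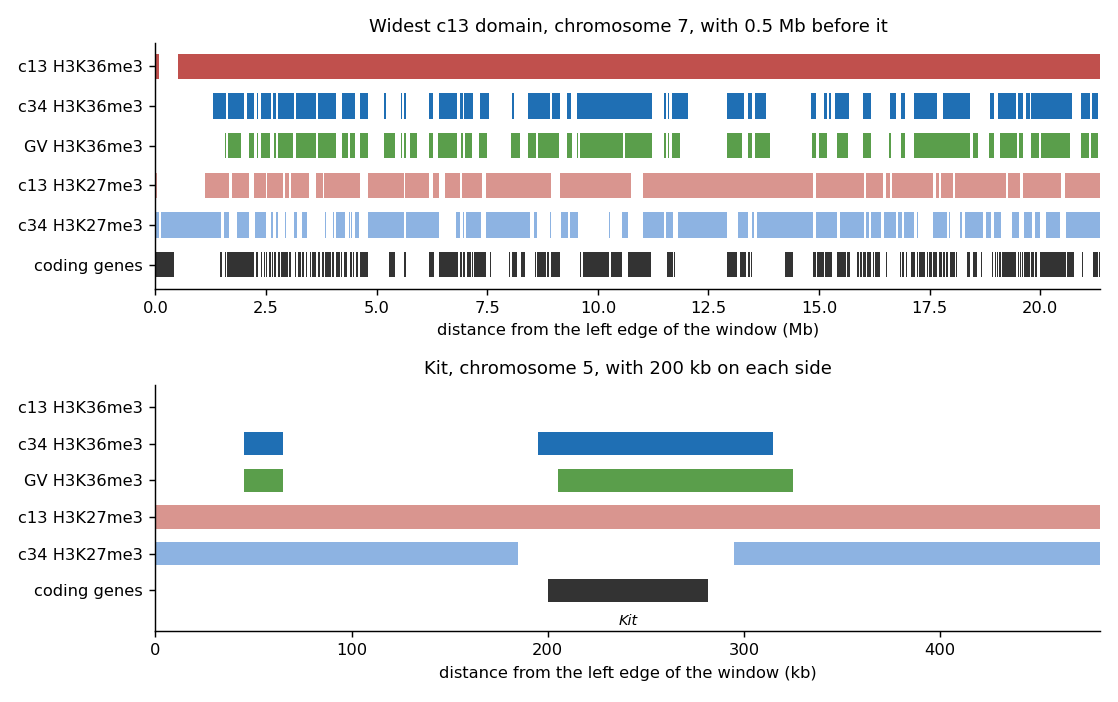
Upper panel, the widest c13 domain with the 0.5 Mb before it (x axis, distance in Mb), and lower panel, Kit with 200 kb on each side (x axis, distance in kb). Bars are domains of the list named at left or coding genes; the 20.86 Mb c13 block is broken into 48 c34 domains, and Kit has no c13 H3K36me3 domain and a c34 domain of 120 kb.

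The widest c34 domains lay mostly over c13 length. The widest, 2.74 Mb at chr14:28790001-31530000 over the calcium channel genes Cacna2d3 and Cacna1d, had 96.4% of its length in 3 c13 domains. A domain of 1.79 Mb at chr10:3870001-5660000, over the nuclear envelope gene Syne1 and the estrogen receptor gene Esr1, had 80.4% in 3 c13 domains. The third, 1.7 Mb at chr7:133510001-135210000 over Dock1 and Adam12, was the only one of these that lay inside a single c13 domain, the widest block.

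The widest lost domains touched 1, 2 and 5 coding genes, which made up 21.7%, 22.0% and 73.2% of their length. The first, 800 kb at chr3:148720001-149520000, touched Adgrl2, a latrophilin adhesion receptor gene. H3K27me3 covered 82.5% of this domain in c13 and 100% in c34. The second, 540 kb at chr15:8470001-9010000, touched Slc1a3, a glutamate transporter gene, and Ranbp3l. There H3K27me3 covered 100% in c13 and 77.8% in c34. The third, 430 kb at chr4:147190001-147620000, touched 5 genes, Zfp978 and Zfp982 among them, and had no H3K27me3 at either cultured stage.

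The widest gained domains lay over large genes. The first, 870 kb at chr1:84030001-84900000, lay over Dner, a Notch ligand gene, and Pid1. The second, 820 kb at chr7:48790001-49610000, lay over Nav2, a neuron navigator gene of 651 kb. The third, 800 kb at chr2:112450001-113250000, lay over Ryr3, a ryanodine receptor gene of 586 kb, and Aven. In these 3 domains coding genes made up 93.0%, 88.0% and 94.5% of the length. GV domains covered 69.0%, 100% and 98.8% of them.

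Kept, lost and gained length differed in how much of it lay in protein-coding genes. Such genes made up 39.97% of the autosomes, which is what placement without regard to genes would give. They held 69.2% of kept length, 33.3% of lost length and 51.3% of gained length. Length covered at neither stage was 23.2% genic. The kept share lay between 65.2% and 77.3% on the 19 autosomes and above the gained share on all 19. The lost share ran from 23.2% to 38.4% and the gained share from 21.7% to 61.9%, with the gained share above the lost share on 15 of 19, the exceptions being chromosomes 11, 12, 17 and 18.

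Lost domains as a whole were 32.7% genic and 83 of 186 touched no coding gene. Among gained domains 1017 of 2184 touched none. For c13 domains kept one to one the count was 54 of 304, and for split ones 5 of 378. For their c34 partners it was 58 of 304 and 314 of 2257. Lost and gained domains were the narrower ones, with medians of 80 kb and 70 kb, so these counts also depend on width. Those gained domains outside genes were narrow, with a median of 40 kb, against 100 kb for the 1167 that touched a gene. GV domains overlapped 65.1% of the gained domains outside genes and 86.1% of those at genes. By length, GV domains covered 65.6% and 81.8% of them.

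Gene bodies stood above their flanks more often in c34 than in c13, though in less than 50% of the genes read. This was read on 874 genes of at least 50 kb with no other coding gene within 50 kb, so that a flank belongs to no neighbour. Mean coverage in c13 was 42.1% over the body and 42.2% over the 50 kb on each side. In c34 it was 44.4% over the body and 21.2% over the flanks. The body stood at least 20 points above the flanks in 56 genes (6.41%) in c13 and in 369 (42.2%) in c34. The same count was 379 (43.4%) in GV oocytes and 60 (6.86%) at E18.5. Among the 273 genes marked at both stages, body and flank were 91.6% and 87.0% in c13 and 85.4% and 37.6% in c34.

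Along 658 of these genes with a known strand, c13 coverage stayed between 40.5% and 43.2% from 50 kb before the start to 50 kb after the end. In c34 it was 21.4% in the last 10 kb before the start and 36.2% in the part of the body next to the start, when the body is cut into 10 equal parts. It was 50.6% in part 9 and 48.8% in part 10. It was 33.0% in the first 10 kb after the end and 21.8% at 40 to 50 kb. The c34 mark was thus higher toward the 3' part of genes than toward the 5' part, which is the usual course of H3K36me3 along transcribed genes.

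**Figure D3:**
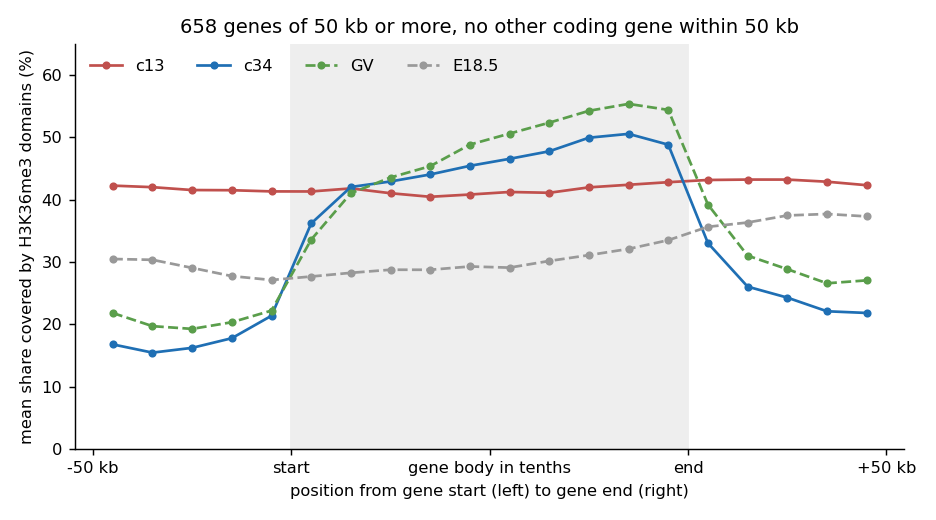
Mean share of length covered by H3K36me3 domains (y axis, %) across 658 isolated genes of 50 kb or more, from 50 kb before the start to 50 kb after the end (x axis; the grey area is the body in 10 equal parts). The c13 line is flat between 40.5% and 43.2%, and the c34 line climbs from 21.4% just before the start to 50.6% in part 9 of the body; GV and E18.5 lines are given for reference.

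Most domain edges lay away from gene ends at both stages, and the share near them was larger in c34. Of 10882 c34 edges, 44.2% lay within 10 kb of an annotated end of a coding gene. Of 2176 c13 edges, 26.1% did, and of all lines of the 10 kb grid, 21.1%. For c34 domains inside split c13 domains the share was 54.9%, and for gained domains 29.6%. Gene starts and gene ends took part about equally, with 23.1% of c34 edges near a start and 22.9% near an end on the chromosomes with strands, where grid lines gave 11.8% and 11.5%.

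The fit of 1 gene to 1 domain was measured as their overlap over their union, which is 1 when they coincide. For a gene inside a wider domain it equals gene length over domain width, so it also restates how wide domains are. Over all genes marked at both stages, the median widest domain at the gene was 3530 kb in c13 and 300 kb in c34. Among 2621 genes of at least 50 kb marked at both stages, the median fit was 0.0345 in c13 and 0.300 in c34, and it was larger in c34 in 2512 of them, 95.8%. A fit of 0.5 or more was reached by 63 genes in c13 and 732 in c34. The closest c34 fit was at Sema6d (chr2:124089943-124667789), a semaphorin gene of 578 kb, with a domain of 580 kb in c34 and none in c13. Sipa1l3, Actr3b, Sipa1l1, Ralgapa2 and Supt3 had fits that rounded to 0.99 in c34, in domains of 200 kb, 90 kb, 280 kb, 270 kb and 340 kb. The same 5 genes lay in c13 domains of 2610 kb, 2510 kb, 5490 kb, 1890 kb and 8430 kb. Kif16b, a kinesin motor gene, had a closer fit already in c13, where it lay in a domain of 400 kb with a fit of 0.71.

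With a gene called marked at 20% of its body, c13 marked 69.9% of the 20661 protein-coding genes and c34 marked 64.5%. Both stages marked 53.9%, c13 alone 16.0% (3313 genes), c34 alone 10.7% (2208 genes) and neither 19.4%. These shares are the background for the counts that follow. Genes marked in c34 only were longer, with a median of 28.8 kb against 13.7 kb in c13 only and 17.5 kb over all genes. The c34-only share was 7.74% of genes under 10 kb and 22.3% of the 215 genes in the longest class, and the c13-only share was 18.6% and 12.6%. Genes shorter than the 10 kb step, 35.5% of all, span at most 1 border of the grid.

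The wide blocks carried most c13 calls. Of the genes marked in c13, 84.1% lay in a domain of 1 Mb or more, and of those marked in c13 only, 2697 of 3313. Without such domains in either list, 3.10% of genes were marked in c13 only and 53.5% in c34 only. Leaving them out removes 80.6% of the c13 length but 4.93% of the c34 length. Counts under that setting therefore move toward c34 only by construction. What made these blocks wide, depth and peak calling included, was not tested.

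Oocyte genes were marked in c34 only where they differed. Of 24 oocyte factors, 13 were marked at both stages, 9 in c34 only, 0 in c13 only and 2, Btg4 and Oog1, at neither. Over all genes 10.7% were c34 only and 16.0% c13 only. The 9 lay in 9 separate c34 domains. They were the transcription factor genes Nobox and Sohlh2, Kit, the receptor for the growth signal from granulosa cells, Zar1, which organises stored maternal RNA, Nlrp5 and Ooep of the subcortical maternal complex, Oosp1, Bcl2l10, an inhibitor of cell death, and Nlrp14. Nobox (chr6:43303674-43310072) had 0% of its body covered in c13 and 100% in c34, E18.5 and GV oocytes. Sohlh2 had 100% in c34 and 0% at the other 3 stages, and H3K27me3 lay over 100% of its body in c34 and 0% in c13.

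Kit (chr5:75574987-75656722) went from one mark to the other. H3K36me3 covered 0% of its body in c13 and 100% in c34, in a domain of 120 kb, and 93.9% in GV oocytes. H3K27me3 covered 100% of it in c13 and 0% in c34. Zar1, Ooep and Oosp1 showed the same exchange, with 100% H3K27me3 in c13 and 0% in c34. In GV oocytes H3K36me3 covered 0% of Ooep. Of the 9 oocyte factors marked in c34 only, 4 were marked by H3K27me3 in c13, against 739 of all 2208 genes marked in c34 only. Among the factors marked at both stages were the zona pellucida gene Zp3, the growth factor gene Gdf9 and Figla, all at 100% in c13 and in c34. They lay in c13 domains of 7360 kb, 4940 kb and 3900 kb against 670 kb, 940 kb and 670 kb in c34. Without domains of 1 Mb or more in either list, 20 oocyte factors were marked in c34 only and 0 in c13 only. Over all genes that setting gave 53.5% and 3.10%.

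Genes of meiotic prophase differed in the other direction. All 23 meiosis genes on autosomes were marked in c13, 16 of them also in c34, 7 in c13 only and 0 in c34 only. The 7 were Stra8, which opens the meiotic programme under retinoic acid, Spo11 and its partners Mei1 and Mei4 of meiotic break formation, and Syce1, Sycp1 and Tex12 of the synaptonemal complex. Stra8 (chr6:34920163-34939344), Spo11 (chr2:172977379-172993576) and Sycp1 (chr3:102818499-102936100) had 100% coverage in c13 and 0% in c34. Mei1 had 100% and 12.01%. Mei4 had 26.3% in c13 and 0% in c34, and lay in a c13 domain of only 90 kb. GV oocytes covered 0% at Stra8, Spo11, Syce1 and Mei4, 59.5% at Sycp1, 64.9% at Mei1 and 100% at Tex12. Thus 3 of the 7 were marked in GV oocytes, against 18.7% of all genes marked in c13 only. Meiotic genes kept at 100% in both included Dmc1, the meiotic strand exchange gene, the cohesin genes Rec8, Smc1b and Stag3, and Sycp3. Of the 7, 5 lay in c13 domains of 1 Mb or more, against 2697 of all 3313 genes marked in c13 only. Without domains of that width in either list, 2 meiosis genes were marked in c13 only and 11 in c34 only. Over all genes the same setting gave 3.10% and 53.5%. The direction of this list was thus not seen apart from the wide blocks. The setting cannot decide it, because it removes most of the c13 list.

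Of 17 germline genes, 13 were marked at both stages. Dazl, an RNA-binding regulator of germ cell translation, its relative Boll, and Tex101 were marked in c13 only, and Asz1, a piRNA pathway gene, in c34 only. Dazl (chr17:50279393-50293620) had 100% in c13 and 0% in c34 and GV oocytes, and 100% H3K27me3 at both cultured stages. Boll had 100% in c13 and 0% in c34 with 3.15% and 0% of H3K27me3, so its body had next to no H3K27me3 at either stage. Ddx4, the germ cell helicase gene, had 100% at both stages.

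The labelled cell type was checked on 8 germ cell and oocyte markers, of which 7 were marked by H3K36me3 in c13 and 7 in c34, Nobox joining and Dazl leaving. Of 6 ovarian somatic markers, 4 were marked by H3K36me3 in c13 (Foxl2, Fst, Wnt4 and Amhr2) and 1 in c34 (Amhr2). Of 3 pluripotent markers, 2 were marked in c13 (Nanog and Esrrb) and 1 in c34 (Esrrb). Over all genes 69.9% were marked in c13 and 64.5% in c34, so the somatic and pluripotent counts in c13 were near that share. An H3K4me3 peak within 1 kb of an end was found at both stages for all 8 germ cell markers and all 6 somatic markers, so it did not separate them, and for 3 pluripotent markers in c13 and 1 in c34. Over the longer list of 20 ovarian somatic genes, 13 were marked in c13 and 8 in c34. Of the 6 marked in c13 only, 4 were marked in GV oocytes, against 18.7% of all genes marked in c13 only. H3K27me3 marked 19 of the 20 somatic genes in c13 and 16 in c34, against 11574 and 8291 of all 20661 genes. The part of other cell types in these lists was not tested.

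Imprinted genes with maternal germline methylation were all marked in c34. Of 18, 11 were marked at both stages, among them Peg3, Mest, Igf2r and Gnas at 100%, and 7 in c34 only, with 0 in c13 only. The 7 lay in 5 c34 domains, because Peg10 and Sgce are neighbours that share 1 domain and Nap1l5 lies within Herc3. Plagl1 (chr10:13090832-13131694), a zinc finger growth regulator gene, had 0% in c13 and 95.9% in both c34 and GV oocytes. Peg10 had 0% in c13, then 96.1% in c34 and in GV oocytes. Its neighbour Sgce had 0% in c13, 92.2% in c34 and 9.89% in GV oocytes. Herc3 had 0% in c13 and 99.6% in c34, in a domain of 90 kb over a body of 88.9 kb. Zdbf2 and Snrpn were covered in part in c34, at 56.2% and 22.99%, and GV oocytes covered 8.44% and 18.7% of them. In all, 4 of the 7 were marked in GV oocytes, against 81.9% of all genes marked in c34 only. Without domains of 1 Mb or more in either list, 16 of the 18 were marked in c34 only, against 53.5% of all genes. The list is defined by methylation in oocytes, where H3K36me3 guides it, so its count is no independent evidence.

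The enzymes that write and read these marks were mostly marked throughout. Of 22 genes of H3K36 methylation, 21 were marked at both stages and Kdm4c, an H3K9 and H3K36 demethylase gene, in c34 only. Setd2, Nsd1 and Nsd2 had 99.8% or more at both stages. Of 16 genes of DNA methylation, 13 were marked at both, Dnmt1, Dnmt3a and Dnmt3l at 100%. Kdm1b, whose H3K4 demethylase is needed for maternal imprints, had 0% in c13 and 100% in c34, and Zfp57, which protects imprints, 0% and 92.4%. Tet1, a 5-methylcytosine dioxygenase gene, had 100% in c13 and 0% in c34, with H3K27me3 at 0% and 100% in the same order.

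Polycomb and H3K4 enzyme genes gave 12 of 18 marked throughout, 6 in c34 alone and 0 in c13 alone. The 6 were Ezh2 and Eed of the H3K27 methyltransferase, its partner Jarid2, Rnf2 of the other Polycomb complex, Kmt2a and Kdm5b. Jarid2 (chr13:44730774-44921643) had 0% in c13 and 100% in c34, and Ezh2 0% and 91.9%. All 6 were also marked in GV oocytes, as were all 18 of the list, against 81.9% of all genes marked in c34 only. Without domains of 1 Mb or more in either list, 17 of the 18 were marked in c34 only, against 53.5% of all genes. Among 23 genes of oocyte growth and signalling, Cdk1, Wee2, Igf1r and Cnot6l were marked in c34 only and the estrogen receptor gene Esr2 in c13 only. Housekeeping genes gave 13 of 18 marked throughout, 3 in c34 alone and 2 in c13 alone.

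Developmental regulators were often marked in c13 only. Of 24, 12 were marked in c13 only, 5 at both stages, 1, Pax6, in c34 only and 6 at neither. Cdx2, Eomes, Foxa2, Hoxb1, Myod1, Neurog1 and Olig2, transcription factor genes of early lineages, each had 100% in c13 and 0% in c34. All 12 were marked by H3K27me3 in c34, but so were all 24 regulators and 2856 of the 3313 genes marked in c13 only. In addition, 11 of the 12 lay in c13 domains of 1 Mb or more. Without domains of that width in either list, 1 regulator was marked in c13 only, against 3.10% of all genes. Among 19 genes of pluripotent and early germ cells, 6 were in c13 only, among them Prdm14, Nanog and Utf1. These 6 lay in 4 c13 domains, and 5 of them in domains of 1 Mb or more. Another 4 were in c34 only, all of the Dppa group: Dppa2 and Dppa4, Dppa3 and Dppa5a. The 4 lay in 3 c34 domains, and 0 of them were marked in GV oocytes, against 81.9% of all genes marked in c34 only. Of 14 genes with H3K27me3-dependent imprinting, 5 were in c13 only, among them Etv6, Gab1 and Runx1, and 1, Bbx, in c34 only.

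Hox and keratin clusters followed the blocks they lie in. All 10 Hox genes on chromosome 11 and all 9 Hox genes on chromosome 15 were marked in c13 only, and the 20 Hox genes on chromosomes 2 and 6 at neither stage. Of 53 keratin genes, 49 were marked in c13 only and 4 at both stages, all within 2 c13 domains of 17950 kb and 11370 kb. Such members share a domain, so these counts stand for 2 domains and not for separate events.

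**Figure D4:**
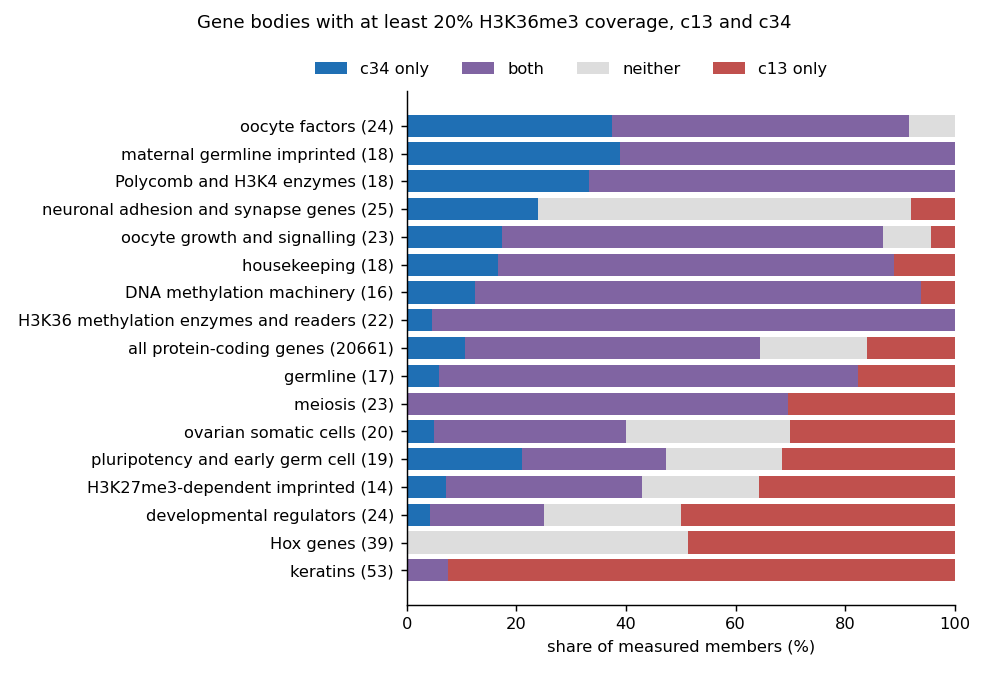
Share of the measured members of each list (x axis, %; number of members in brackets) whose body was marked in c34 only, both, neither or c13 only. Oocyte factors, maternal imprinted genes and Polycomb and H3K4 enzymes have c34-only members and no c13-only ones, and 12 of 24 developmental regulators and 49 of 53 keratins are marked in c13 only; all genes have 10.7% and 16.0%.

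Among single long genes the largest losses were at Asic2, Sox5 and Rbms3. Asic2, an acid-sensing ion channel gene of 1088 kb, had 100% in c13 and 0% in c34 and GV oocytes. Sox5, a transcription factor gene of 954 kb, had 100% and 1.05%. Next came Fhit, with 82.0% and 33.5% and so still marked in c34, and Tenm4, with 100% and 0%. GV oocytes covered 94.3% of Fhit and 56.9% of Tenm4. Alk, a receptor tyrosine kinase gene, had 100% in c13 and 0% in c34, and Negr1, a neuronal adhesion gene, had 91.0% and 0%. The largest gains were at Dab1, a Reelin pathway adaptor gene, with 0% in c13 and 89.3% in c34 of 1125 kb, at Pcdh15 with 0% and 55.3%, and at Cntnap2 with 3.57% and 38.4%. Nav2, Foxp1, Lama2 and Ryr3 had 0% in c13 and at least 93.7% in c34. GV oocytes covered at least 89.4% of these same 4 bodies. Of 25 neuronal adhesion and synapse genes, most of them very long, 6 were marked in c34 only, 2 in c13 only and 17 at neither.

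Lists that the comparison did not use divided the 3 kinds of length. GV H3K36me3 domains covered 88.8% of kept length, 15.7% of lost length and 77.6% of gained length, against 38.5% of the autosomes. The 15.7% on lost length ran from 10.1% to 26.3% over the 19 autosomes, and the 77.6% on gained length from 61.9% to 91.7%. E18.5 H3K36me3 domains did not part them in this way, at 24.2%, 26.4% and 34.8% against 23.8% of the autosomes.

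H3K27me3 covered less of the kept length in c34 than in c13 and about as much of the lost length. On kept length it covered 62.3% in c13 and 24.99% in c34. On lost length it covered 82.1% in c13 and 81.7% in c34, and 56.6% in GV oocytes. On gained length it covered 27.8% and 15.5%. Over the autosomes as a whole the shares were 42.4% in c13 and 36.9% in c34. In c13, then, 82.1% of lost length lay in domains of both marks, which says nothing of the same nucleosomes or cells. The c34 share on lost length ran from 71.8% to 90.5% between chromosomes.

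H3K4me3 covered 23.9% of kept length in c13 and 19.9% in c34, 14.8% and 11.4% of lost length, and 4.29% and 9.76% of gained length. In GV oocytes it covered 40.4% of lost length, against 24.9% of the autosomes, 23.2% of kept length and 13.7% of gained length. The labels name only 1 library for GV H3K4me3 and 1 for GV H3K27me3. At gene starts with a known strand, an H3K4me3 peak lay within 1 kb in 59.4% of c13-only genes in c13 and in 41.2% of them in c34. For c34-only genes the shares were 67.6% and 68.9%, and for all genes 69.6% and 64.4%. Body coverage by H3K27me3 averaged 83.4% and 83.9% in c13-only genes and 31.2% and 21.2% in c34-only genes.

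**Figure D5:**
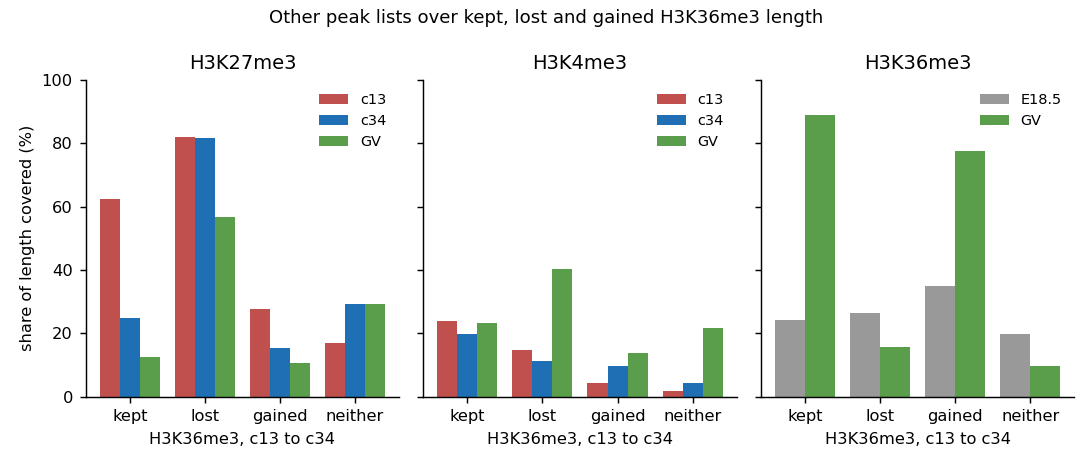
Share of length (y axis, %) covered by H3K27me3, H3K4me3 and H3K36me3 domains of the stages in the key, over H3K36me3 length kept, lost or gained from c13 to c34, or covered at neither stage (x axis). H3K27me3 in c34 covers 81.7% of lost and 24.99% of kept length, and GV H3K36me3 covers 77.6% of gained and 15.7% of lost length.

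At the level of genes, 91.6% of those marked at both stages were also marked in GV oocytes, 81.9% of those in c34 only, 18.7% of those in c13 only and 10.54% of those at neither, against 63.1% of all genes. The marked shares at E18.5 were 17.8%, 36.3%, 20.9% and 23.5% of the same classes.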

How the data were processed

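Each deposited peak list gives, per the file headers, only Chromosome, Start and End (an other unit: base pairs, no counts or scores). The values show a start counted from 0 and an inclusive end. The submitters' processing notes name SICER 0.0.41, MACS2 2.1.1 and Bowtie2 2.3.4.1, with builds mm10 and GRCm38.p3. For the caller, its threshold, input and pooling, the answer is: not given in the sources used here. Depth or threshold can therefore change a list's length.

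Autosomes were taken up to the last peak or gene, 2461 Mb in all. Gene positions came from the RefSeq table of GRCm38.p6, protein-coding genes only, and strands from its promoter table for 79.6% of them. Of 288 list symbols, 278 were found on autosomes. Members and gene lists were chosen with earlier results of these data known. Named genes were list members whose call differed, at most 8 per list by size of difference, the 10 long genes per direction with the largest change, genes of the 3 widest domains of each kind and the 10 closest fits. Of these a selection is printed. Marker, Hox, keratin and kept genes, and the promoters shown, were chosen after their values were seen.

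The arithmetic was tested on simulated data: 1991 of 1991 simulated domains got their true class and 200 of 200 gene bodies their true coverage. The simulated domains were kept, split, merged, lost or gained. The mixed class and blocks as wide as the widest c13 domains were not simulated. Alternatives changed chromosomes, domain width, gaps, overlap, gene set, body share, flank and distance. Versions were pandas 2.3.3, numpy 2.4.6, matplotlib 3.10.9, scipy 1.17.1 and Python 3.11.15.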

Additional observations from a re-analysis of the deposited data

Results flagged for a closer look

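Chromosome X lay outside the comparison and carried H3K36me3 domains at both stages, which is why it is listed here. It held 82 domains in c13 and 285 in c34, where a count of 0 would allow up to 3. They covered 7.96% of the chromosome in c13 (13.6 Mb) and 17.9% in c34 (30.6 Mb). On the autosomes the order was the other way, with 45.0% and 36.5%. Of 966 coding genes on X, both stages marked 178, c13 alone 53 and c34 alone 209, that is 5.49% and 21.6%, against 16.0% and 10.7% on autosomes. H3K27me3 covered 5.60% of X in c13 and 11.0% in c34, and H3K4me3 covered 1.79% and 3.39%. Whether X differs from the autosomes beyond library error was not tested. No group had 4 or more lists, so no list could be compared with others of its own kind.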

How the results depend on the processing

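No paired analysis was possible because each stage has 1 list for its 2 libraries, and for the same reason no replicate could be left out. Of 57 values recomputed outside the gene lists, 37 stayed within their limits and 20 moved. The limits were 1.5 times for counts and shares of genes, and an exact 95% binomial interval over grid steps, edges or genes for other shares, which treats neighbouring steps as independent. Leaving out domains of 1 Mb or more removed most of the c13 list by construction: 51.4% of the remaining c13 length was kept and 87.1% of the c34 length was gained, kept, lost and gained length were 68.1%, 30.9% and 62.6% genic, and both stages, c13 alone and c34 alone marked 8.12%, 3.10% and 53.5% of genes. Under that setting, chosen after seeing the data for gene lists and flanks, 4.69% of isolated genes stood above their flanks in c13, and 2 meiosis genes were c13 only and 11 c34 only. With gaps up to 50 kb joined, 59.2% of c13 length was kept and 29.8% of c34 length gained. With chromosome X, 31.7% of c34 length was gained. With all genes of the table, kept, lost and gained length were 75.03%, 44.9% and 59.8% genic. Among genes apart from others by 50 kb, 26.0% were marked at both stages and 17.3% in c34 only. With flanks of 100 kb, 8.35% of genes stood above their flanks in c13. Within 20 kb of a gene end lay 39.0% of c13 edges and 53.9% of c34 edges. At body shares of 50% and 80%, 7 and 9 meiosis genes were c13 only, and 9 and 8 oocyte factors c34 only. Domains narrower than the 10 kb step or closer than 40 kb cannot be seen.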

Other observations

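Gene families were read by symbol. Of 388 zinc finger genes with Zfp symbols, both stages marked 251, c13 alone 83 and c34 alone 17, the last 4.38% of them and the c13 share 21.39%, against 10.7% and 16.0% of all genes. Of the 83, 48 carried H3K27me3 in c34, against 2856 of all 3313 genes marked in c13 only. Cytosolic ribosomal protein genes were marked at both stages in 66 of 80 cases, proteasome subunits in 35 of 39 and mitochondrial ribosomal proteins in 65 of 78, against 53.9% of all genes. Of 23 cadherin genes, both stages marked 9, c13 alone 5 and c34 alone 0, against 53.9%, 16.0% and 10.7% of all genes.

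Olfactory receptor genes were mostly bare, with 816 of 1104 marked at neither stage, 113 in c13 only and 133 in c34 only. The 133 lay in 42 c34 domains. On chromosome 2, 47 of 287 were c34 only and 0 c13 only, and on chromosome 11, 11 of 83 were c34 only and 31 c13 only. Of the core histone genes, all 10 on chromosome 3 were marked at both stages and 46 of 47 on chromosome 13 at neither. The exception on chromosome 13 was marked in c34 only.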
